A study of Mus musculus with 7 samples.

Results

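Gene expression in mouse plantaris, a fast calf muscle that helps extend the ankle, was set between the first hours of rest and the moment at which running stopped. Of the 7 arrays in the series, 4 belong to this comparison. The end of running is held by R3h, from mice killed at once after 3 h of running, and R12h, from mice killed at once after 12 h. Early recovery is held by P3h and P6h, from mice that had rested for 3 and 6 h after a 12 h run. The difference taken was the mean of P3h and P6h minus the mean of R3h and R12h, probe by probe. On each array RNA from a pool of 3 to 5 running mice, in Cy5, was set against RNA from a pool of 8 untrained control mice, in Cy3. Because that control pool and the dye order are common to the 4 arrays, both cancel in the difference. The sources used here name no strain, age or sex for the mice. Each value is the deposited log2 ratio of the channels, so a difference of 1 is a doubling. Its direction is not stated, and a positive ratio likely means more RNA in the running pool, from the dyes. A ratio was taken as present where its size was above 1e-12. That held on all 4 arrays for 9317 of the 16273 probes, and these were kept. Of the 6956 others, 3193 were at 0 on P6h only, 2102 on all 4 arrays, 124 on a single other array and 1537 on 2 or 3 arrays.

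During a long run a muscle draws on glycogen and fatty acids, and contraction sets off calcium, energy and stress signals. Many transcripts known to respond to endurance exercise, such as those for Ppargc1a, a coactivator of mitochondrial genes, and Pdk4, which spares glucose by blocking pyruvate dehydrogenase, are known for peaking in the hours after exercise. A comparison of early rest with the end of running therefore looks at the window in which fuel use, protein turnover and repair are being reset. In a whole muscle, fewer cells of a type and less RNA per cell cannot be told apart. The ratios hold no absolute levels, so the labelled tissue could not be checked against the level of its markers.

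Gene names below are labels that the platform annotation attaches to a probe. Kept probes that share an accession gave 189 pairs, and their differences had the same sign in 53.4% of these, with a Pearson r of 0.12 across pairs. Over 1173 pairs with the same gene label the sign was shared in 52.0%. The members of a pair typically lay 0.22 apart by accession and 0.24 by label, more than the typical size of a single difference, 0.14. The same held for repeated spots. Of 25 spots labelled Gapdh, a glycolytic enzyme often used as a control, 19 were kept, and the 18 of them numbered up to 4000 had differences from -0.45 to 0.80. Their SD was 0.33, against 0.26 for the 129 other kept probes within 10 numbers of them. What a gene is known to do is therefore given as background to the label and says nothing about what a probe measured.

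No probe passed the test. With limma, fitted to all 9317 kept probes with both arrays of a side as its replicates, 0 probes were called higher and 0 lower (0.0% each) at a Benjamini-Hochberg adjusted p of 0.05. At an unadjusted p under 0.05 there were 639 higher (6.86%) and 174 lower (1.87%), and the smallest adjusted p was 0.50. These counts are split by probe number below. The differences were small as a whole, with a median of 0.02 and an SD of 0.27, and 93.2% were under 0.5 in size. When the same spread was simulated with known changes, 54 of 100 probes set to differ by 1 were called, as were 97 of 100 set to differ by 2. Another 6 calls there were false. These shares depend on the number and size of the changes that were set, 100 probes for each size. They do not carry over to these data, where 53 kept probes differed by at least 1 and 0 were called. The spread also holds time, since the arrays of a side are different times and their p-values rest on pools of animals.

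Single arrays differed within a side about as much as across sides. The SD over probes was 0.28 for R12h minus R3h and 0.37 for P6h minus P3h. Across sides it was 0.30 for P3h minus R12h, 0.32 for P6h minus R12h, 0.38 for P6h minus R3h and 0.40 for P3h minus R3h. The arrays of the same 12 h run lay nearer to R12h than to R3h. Against R12h, P3h had 88 probes higher by at least 1 and 3 lower, while P6h had 31 higher and 54 lower. The balance of directions was thus opposite at 3 and 6 h of rest when R12h alone was the reference.

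The direction of the difference followed the number of the probe. Among the 2220 kept probes numbered up to 4000 the median ratio was -0.22 on R3h and -0.24 on R12h, against 0.02 on P3h and -0.03 on P6h. Among the 7097 numbered above 4000 the medians were 0.05, 0.05, 0.01 and 0.00. The low stretch was also seen on R4w, from mice after 4 weeks of running, whose time of rest is not given in the sources used here, and on none of the arrays taken hours after a run. The median there was -0.20 on R4w and 0.01 on P12h and 0.04 on P24h, taken 12 and 24 h after the run. The median difference was 0.24 in the low-numbered stretch and -0.03 in the rest. Of the 639 probes higher at an unadjusted p under 0.05 in limma, 512 were numbered up to 4000. Of the 174 lower ones, 3 were. The limit of 4000 was chosen after the values were seen. What the probe numbers stand for on the slide is not given in the sources used here, so the part of the stretch in the results was not tested. The main results below are also given after local subtraction. For this, the median of a probe and its 100 nearest kept neighbours on either side was taken off on each array. After it, limma gave 303 higher and 167 lower at an unadjusted p under 0.05, and the smallest adjusted p was 0.91.

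**Figure D1:**
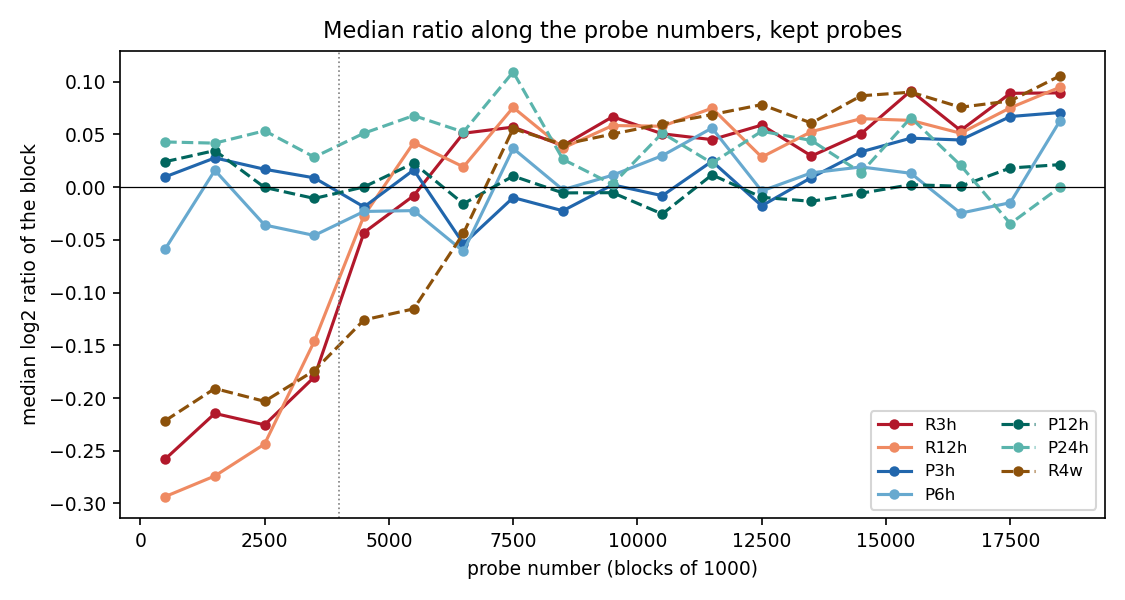
Median deposited log2 ratio (vertical axis) of the kept probes in blocks of 1000 probe numbers (horizontal axis), a line for each array. Solid lines are the 4 arrays compared, dashed lines the other 3, and the dotted line marks probe number 4000. R3h, R12h and R4w start between -0.22 and -0.29 in the first block, while the arrays after rest start between -0.06 and 0.04.

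Probes that lay apart, with both recovery arrays above or both below both run-end arrays, were counted next. There were 2176 higher in recovery (23.4%) and 1485 lower (15.9%). In the low-numbered stretch 55.6% of the probes were apart and higher and 2.03% apart and lower. Above 4000 the order turned, with 13.3% higher and 20.3% lower, but after local subtraction it was 18.9% higher and 14.3% lower there, and 21.5% and 17.3% up to 4000. Over the whole table the local counts were 1821 higher (19.5%) and 1399 lower (15.0%), and 1377 of the higher and 1020 of the lower probes were common to both ways of counting. Those are 63.3% and 75.6% of the higher sets and 68.7% and 72.9% of the lower sets.

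Few of these were large. Apart and different by at least 1 were 28 probes higher (0.301%) and 11 lower (0.118%), with a median size of 1.16 for the higher and 1.17 for the lower. Of the 28, 22 were numbered up to 4000, and of the 11, none was. With local subtraction 18 probes were higher (0.193%), 15 of them among the 28, and 11 lower (0.118%), 9 of them the same. The balance turned with quantile normalization, which gave 17 higher and 23 lower. R3h weighed heavily: without it 18 were higher and 5 lower. Without R12h there were 95 and 65, without P3h 27 and 55, and without P6h 117 and 28.

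**Figure D2:**
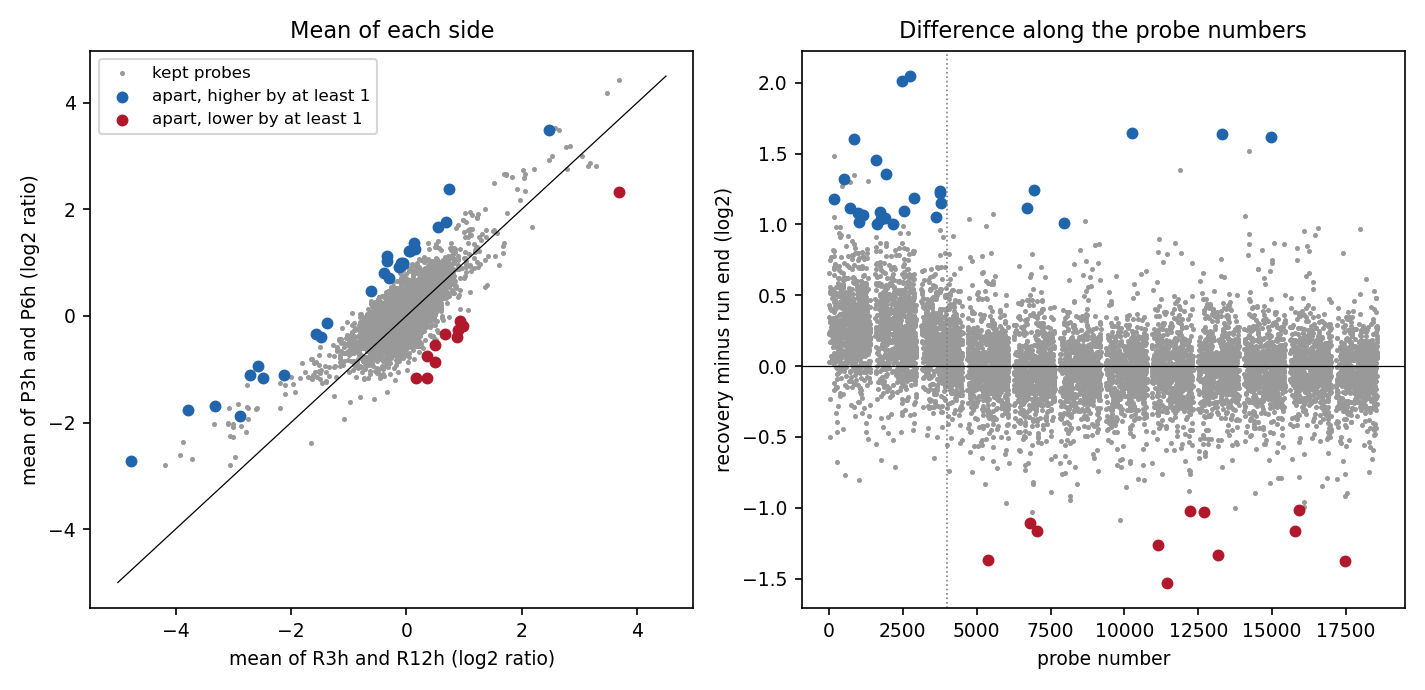
Left, the mean log2 ratio of P3h and P6h against that of R3h and R12h for each of the 9317 kept probes, with the line of equal values. Right, the difference of these means against probe number. Blue points are the 28 probes apart and higher by at least 1, red points the 11 lower. Of the blue points, 22 lie left of the dotted line at 4000, and none of the red points does.

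On the higher side, several leading probes, though not all, sat near the control pool at the end of running and about a doubling above it in early recovery. Since no probe was called, the 12 with the largest gap between sides are given as values, each with an adjusted p of 0.50 in limma (n = 2 arrays a side). The gap is the lowest recovery array minus the highest run-end array. Probe 1579, labelled Cops7a, a subunit of the COP9 signalosome, was at -0.60 on R3h, -0.06 on R12h, 1.16 on P3h and 1.09 on P6h. Its difference was 1.45 ± 0.20 (SE), or 2.74-fold, and 1.18 after local subtraction. The recovery arrays lay within 0.07 of each other here, and the run-end arrays were both below 0 as deposited. After local subtraction R3h was at -0.35 and R12h at 0.24. Probe 2545, labelled Ercc8, of transcription-coupled DNA repair, was at -0.18, -0.03, 1.01 and 0.98 in the same order (1.10 ± 0.14, and 0.87 locally). Probe 2864, labelled Bsg, a membrane partner of lactate transporters, was at -0.31, -0.46, 0.62 and 0.98 (1.19 ± 0.17, and 1.02 locally). These last both lay back below 0 on P24h, at -0.12 and -0.30, whereas probe 1579 was at 1.25 there. The other probes labelled Ercc8 and Bsg were at 0 on P6h and not kept. On R3h, R12h and P3h the Ercc8 probe was at -0.27, -0.35 and -0.27. The Bsg probe was at -0.09, -0.04 and -0.36.

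More of the leading probes followed the course of probe 1579, staying high through P24h. Probe 1925, labelled Eci1, a mitochondrial isomerase of fatty acid oxidation, was at -0.64 on R3h, -0.02 on R12h, 1.23 on P3h and 0.83 on P6h, then 0.76 on P12h and 0.93 on P24h. Probe 1777, labelled Fkbp1b, which binds calcium release channels, was at -0.24, 0.13, 1.13 and 0.83, then 1.05 and 0.84. The unlabelled probe 703 was at 0.00, 0.29, 1.52 and 1.0, then 1.45 and 1.41. For each of these, P12h and P24h lay above both run-end arrays, and R4w lay below 0 (-0.16, -0.40 and -0.29). These probes are numbered up to 4000, where the median was -0.22 on R3h, -0.24 on R12h and -0.20 on R4w. On P12h and P24h it was 0.01 and 0.04 there, and low run-end values had chosen the probes. Probe 807, labelled Armc9, a protein of primary cilia, was already at 0.46 and 0.57 at the end of running and at 1.29 and 1.32 in recovery (0.78 ± 0.14). The other kept probes labelled Armc9 had differences of 0.10 and 0.00. Probe 2275, labelled Polr3e, a subunit of RNA polymerase III, moved from -0.53 and -0.67 to 0.20 and 0.17 (0.78 ± 0.14), of which 0.51 was left after local subtraction.

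The remaining leaders on the higher side had run-end values further from the control pool on at least 1 array. Probe 13291, labelled 2900055J20Rik, stood at 0.44 and 1.05 at the end of running and at 2.15 and 2.61 in recovery. Its difference of 1.64 ± 0.26 was 1.66 after local subtraction, and it was numbered above 4000. On R4w the same probe was at -1.37. The unlabelled probe 10251 was at -2.63 and -2.52 at the end of running, -0.36 on P3h and -1.50 on P6h, with a difference of 1.64 ± 0.36 that was 1.07 without P3h. Without P6h it was 2.21 and was called. Probe 967, labelled Shisal2b, was at -1.47, -1.50, -0.10 and -0.70 (1.08 ± 0.22), and its difference without P6h, 1.38, was called as well. Probe 1032, labelled Clec4g, a C-type lectin, was at -2.20, -2.04, -1.32 and -0.90, a difference of 1.02 ± 0.18 that shrank to 0.21 under quantile normalization. These last 3 were thus below the control pool on every one of the 4 arrays, less so in recovery.

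**Figure D3:**
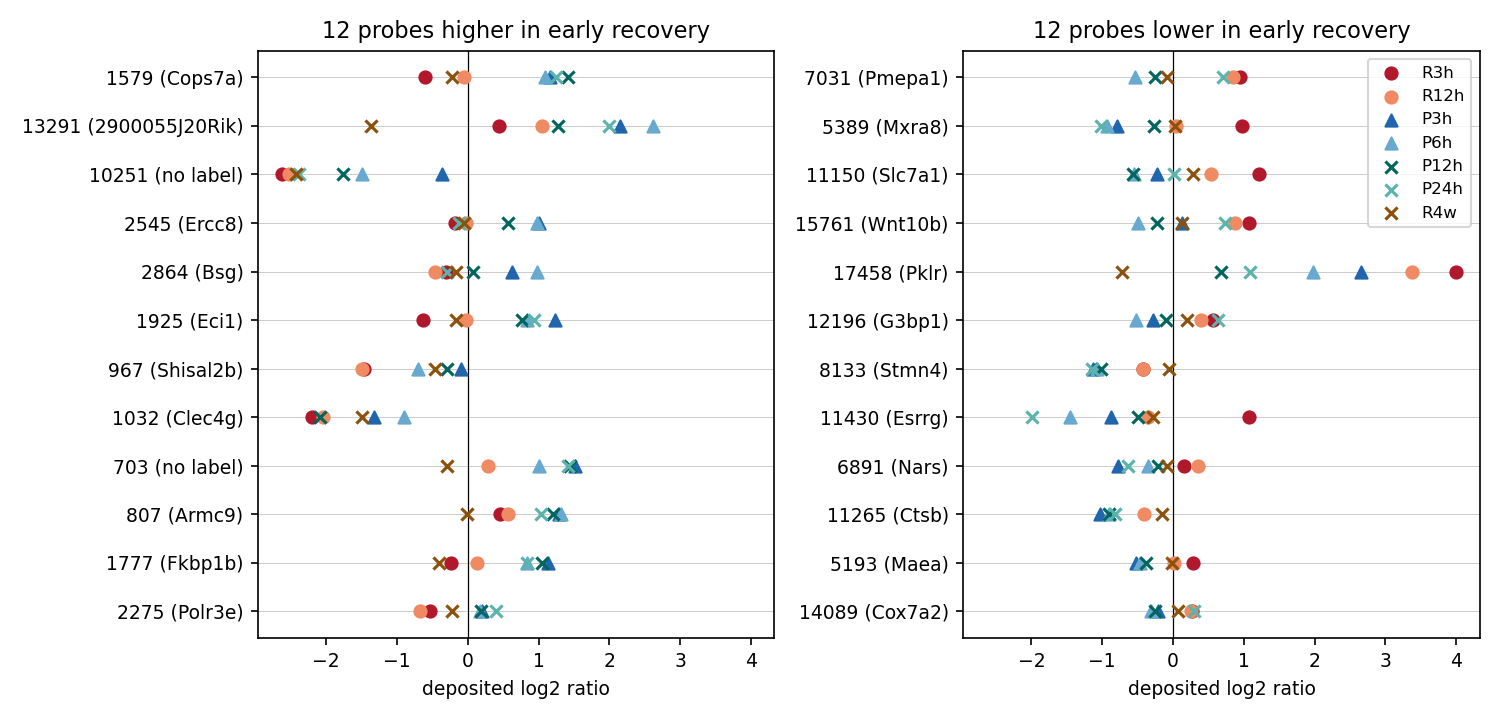
Deposited log2 ratio (horizontal axis) on each of the 7 arrays for the 12 probes with the largest gap in each direction; circles are the run-end arrays, triangles early recovery and crosses P12h, P24h and R4w. A ratio listed at 0 is left out. Circles and triangles do not overlap in any row, since the gap chose the rows; probe 17458 is the highest at the end of running, at 4.00 and 3.38.

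On the lower side the leaders were mostly above the control pool at the end of running and at or under it in recovery. Probe 7031, labelled Pmepa1, which dampens TGF-beta signalling, was at 0.94 on R3h, 0.85 on R12h, 0.00 on P3h and -0.54 on P6h. Its difference was -1.16 ± 0.21 (SE, n = 2 arrays a side, limma adjusted p 0.50), and -1.09 after local subtraction. Probe 15761, labelled Wnt10b, a secreted Wnt ligand, was at 1.07, 0.88, 0.13 and -0.50 (-1.17 ± 0.23), while the other probe of that label had a difference of 0.24. Both probes stood high again on P24h, at 0.71 and 0.73. Probe 12196, labelled G3bp1, a stress granule protein, did the same at a smaller size, with 0.57, 0.39, -0.29 and -0.53, and 0.63 on P24h (-0.88 ± 0.16). A second probe of that label had -0.15. Probe 11150, labelled Slc7a1, a transporter of arginine and lysine, was at 1.21, 0.53, -0.23 and -0.55 (-1.27 ± 0.25), and near 0 on P24h, at 0.01. The other Slc7a1 probe, not kept, was at -0.43 on R3h, -0.36 on R12h and -0.02 on P3h.

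Several of the lower probes owed much of their difference to R3h. Probe 11430, labelled Esrrg, a nuclear receptor of oxidative muscle, was at 1.07 on R3h but -0.35 on R12h, -0.87 on P3h and -1.46 on P6h. Its difference was -1.53 ± 0.46 and -0.82 without R3h. Probe 5389, labelled Mxra8, a membrane protein tied to matrix remodelling, was at 0.97, 0.04, -0.79 and -0.93 (-1.37 ± 0.30, and -0.91 without R3h). In all 11 probes apart and lower by at least 1, R3h was above R12h. In 25 of the 28 higher probes, R12h was above R3h, so that in most of them R12h lay between R3h and recovery. Over all kept probes the median of R12h minus R3h was 0.01. The R3h and R12h values had helped to choose the 11 and the 28, so this order is a description only.

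Probe 17458, labelled Pklr, the pyruvate kinase of liver and red cells, was the highest of the leading probes at the end of running, at 4.00 and 3.38. It was at 2.65 on P3h and 1.98 on P6h (-1.37 ± 0.29), at 0.67 on P12h and at -0.72 on R4w. The other leaders on the lower side had smaller differences. Probe 8133, labelled Stmn4, a microtubule-binding stathmin, was at -0.42, -0.43, -1.13 and -1.07 (-0.67 ± 0.13). Probe 11265, labelled Ctsb, the lysosomal protease cathepsin B, was at 0.00, -0.41, -1.03 and -0.91 (-0.76 ± 0.18). Both were about as low on P12h (-1.02 and -0.91) and P24h (-1.14 and -0.82). Probe 6891, labelled Nars, the tRNA synthetase for asparagine, was at 0.15, 0.35, -0.78 and -0.36. Probe 5193, labelled Maea, part of a ubiquitin ligase, was at 0.28, 0.01, -0.53 and -0.47. Probe 14089, labelled Cox7a2, a cytochrome c oxidase subunit, was at 0.27, 0.26, -0.22 and -0.31.

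Set against the control pool, the 39 probes apart by at least 1 followed different courses. A side was called near the pool where its mean ratio was under 0.5 in size. Among the 28 higher probes, 12 were near the pool at the end of running and away from it in recovery, 4 returned to it, 4 were above it and went further, and 8 were below it and came closer. In the 12 that departed, the medians were -0.29 on R3h and 0.14 on R12h, then 1.22 and 0.97 in early recovery. They were 1.05 on P12h, 0.94 on P24h and -0.26 on R4w. P12h lay above both run-end arrays in 12 of these 12 and P24h in 10, a description only, since low run-end values had chosen the probes. Of all kept probes with a ratio there, 39.3% did on P12h and 47.3% on P24h. Those were not chosen by run-end values, so the counts cannot be weighed against them. Of the 12, 11 were numbered up to 4000, and 12 were still apart after local subtraction. Among them were probes 174, labelled Col6a3, a collagen VI chain, 1907, labelled S100a8, a neutrophil calcium-binding protein, and 7955, labelled Igf2, a growth factor.

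Of the 11 lower probes, 5 returned to the pool, 4 departed below it, 1 crossed it and 1 came closer from above. The 5 that returned had medians of 1.13 on R3h and 0.53 on R12h, then -0.14 on P3h and -0.52 on P6h. Besides the probes labelled Pmepa1, Slc7a1 and Wnt10b they were 12213, labelled Sptb, the erythroid beta spectrin, and 15921, labelled Gfpt2, of hexosamine synthesis. Probe 12213 was at 1.48 on R3h, 0.36 on R12h, -0.14 on P3h and -0.06 on P6h. All 11 lay below both run-end arrays on P24h and 9 did on P12h. Of all kept probes with a ratio there, 35.6% did on P24h and 32.4% on P12h. Here too the run-end values that serve as the reference had chosen the probes, so the counts cannot be weighed against those shares.

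The 8 probes below the pool that came closer did so mainly on P3h. Their medians were -2.97 on R3h, -2.62 on R12h, -0.56 on P3h and -2.37 on P6h. On P12h the median was -1.99, with 7 of the 8 above both run-end arrays. On P24h it was -2.45 over the 7 with a ratio, and on R4w -2.67 over the 8. Low run-end values had chosen these probes. At -1 or below were 46 kept probes on P3h, against 131 on R3h, 137 on R12h and 168 on P6h. On P12h, P24h and R4w there were 72, 337 and 62. Probe 2728, labelled Lsr, a lipoprotein receptor, had the largest difference of all, 2.05, from -4.90 and -4.63 to -0.96 on P3h and -4.47 on P6h, so that P6h cleared the run-end arrays by 0.16. Of all kept probes, 103 were below -0.9 on both run-end arrays, a limit chosen after the values were seen. P3h was above both of those in 100 (97.1%) and P6h in 44 (42.7%). Over all kept probes the shares were 41.6% and 38.4%. Low run-end values had chosen these 103 probes, and the same arrays are the reference. The counts can therefore not be weighed against the shares over all kept probes. When P6h was left out, limma called 42 probes higher (adjusted p from 0.00336 to 0.050), with differences from 1.30 to 3.80, and 0 lower. In that fit P3h stands alone and is assumed to vary like the run-end arrays. All 42 were below -0.9 on both run-end arrays, with medians of -2.84 on R3h, -2.66 on R12h, -0.36 on P3h and -2.83 on P6h. In 28 of the 42, P6h was no higher than the higher run-end array, so these calls describe P3h and not early recovery as a whole. They lay both up to and above number 4000. A larger part of them was numbered up to 4000 than of all kept probes (2220 of 9317).

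Lists of labels were followed through the same difference, fuel use first. No member of any list was called (0 of 276 kept probes in the 20 lists), and 85 of them were apart and higher and 45 lower. That is 30.8% and 16.3%, against 23.4% and 15.9% of all kept probes. With local subtraction the counts were 63 and 39, or 22.8% and 14.1% against 19.5% and 15.0%, and 52 and 32 probes were counted both ways. Of oxidative phosphorylation and the citric acid cycle, 14 probes were kept, 8 apart and higher and 1 lower, with a median difference of 0.18 (0.15 locally) against 0.02 (0.01 locally) over all probes. Their local counts were 7 and 1. Probe 3765, labelled Ndufa5, a subunit of complex I, was at 1.23 on R3h, 1.82 on R12h, 2.79 on P3h and 2.18 on P6h (0.96 ± 0.28, adjusted p 0.50 in limma). Probe 1132, labelled Sdhb, the iron-sulphur subunit of complex II, was at -0.49, -0.49, -0.01 and -0.02. That is a difference of 0.48, of which 0.19 was left after local subtraction. The direction was not shared by every member, since one probe labelled Cox7a1, numbered 1802, had a difference of -0.09 and the other, numbered 11546, had 0.27.

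**Figure D4:**
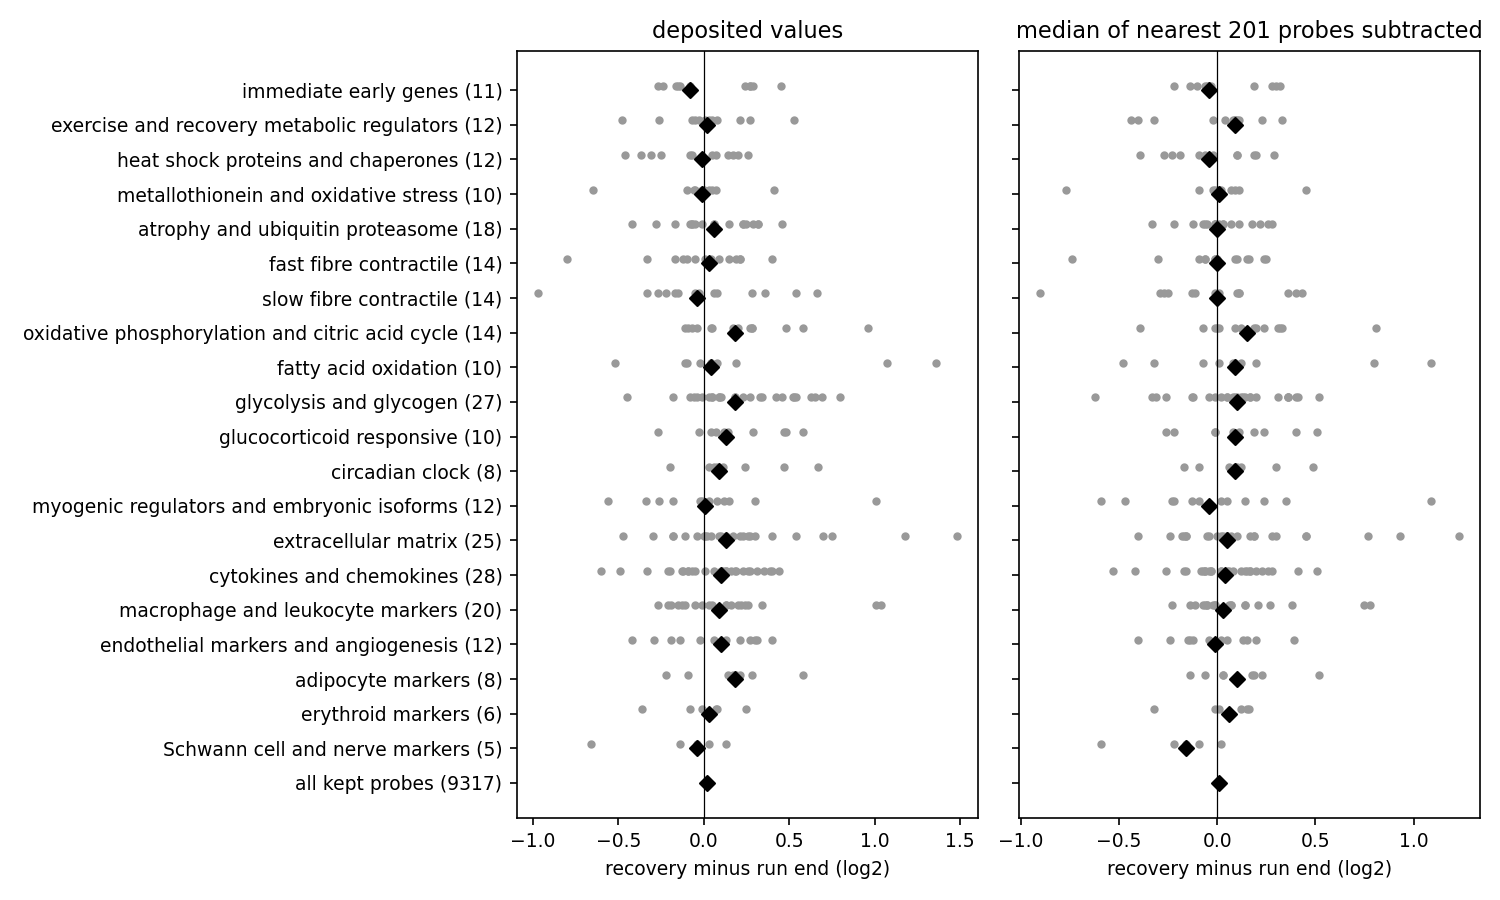
Difference of recovery minus run end (horizontal axis, log2) for each kept probe of the 20 lists (grey points; number of probes in brackets) with the list median (diamond), from the deposited values on the left and after subtraction of the local median on the right. All medians lie between -0.16 and 0.18; the last line is the median of all 9317 kept probes.

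Fatty acid oxidation had 10 kept probes, 3 apart and higher and 1 lower both as deposited and locally, with medians of 0.04 and 0.09. Its largest values were those of Eci1 above and of probe 1138, labelled Acadm, the medium-chain acyl-CoA dehydrogenase, at -0.86, -0.35, 0.27 and 0.65 (1.07, and 0.80 locally). Both are numbered up to 4000. Glycolysis and glycogen had 27 kept probes, of which 19 are Gapdh spots, with 11 apart and higher and 1 lower and a median of 0.18, or 6 and 0 and a median of 0.10 locally. The Gapdh spots numbered up to 4000 had a median difference of 0.38, against 0.30 for their neighbours in the table. Of the metabolic regulators known to respond to exercise, 12 probes were kept, 4 apart and higher and 3 lower, with a median of 0.02. Locally the counts were 6 and 2. Probe 6479, labelled Ppargc1a, was at 0.12, 0.10, 0.06 and 0.06, and probe 4886, labelled Pdk4, at 0.16, 0.29, 0.43 and 0.19. The differences, -0.05 ± 0.13 and 0.08 ± 0.15, were smaller than their SE. Probe 3138, labelled Ppard, a nuclear receptor for fatty acids, was at -0.51, -0.44, -0.03 and 0.14 (0.53, and 0.33 locally).

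Immediate early genes had 11 kept probes, 2 apart and higher and 5 lower, with a median of -0.08 and, locally, counts of 0 and 2. Probe 229, labelled Fosl1, an AP-1 factor, was at -0.30, 0.12, 0.32 and 0.40, and its difference of 0.45 was 0.19 locally, no longer apart. Probe 18330, labelled Klf6, was at 0.30, 0.30, 0.17 and 0.13. Heat shock proteins and chaperones had 4 higher and 3 lower of 12 (median -0.01), and 4 and 2 locally. Probe 8295, labelled Hspb2, a small heat shock protein of muscle, was at -0.19, -0.18, -0.48 and -0.51. Metallothionein and oxidative stress had 1 and 1 of 10 (median -0.01), and 3 and 1 locally, with probe 3548, labelled Cdkn1a, a cell cycle inhibitor, at -0.66, -1.28, -1.63 and -1.62 and the other kept probe of that label at a difference of 0.05. Glucocorticoid responsive genes had 3 and 1 of 10 (median 0.13, and 0.09 locally) and the circadian clock 3 and 0 of 8 (median 0.09), or 2 and 0 locally. Probe 3151, labelled Dbp, a clock output factor, was at -0.66, -0.30, 0.32 and 0.05 (0.67, and 0.49 locally).

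Contractile and protein turnover lists went both ways. The fast fibre list had 2 apart and higher and 4 lower of 14 (median 0.03), with 0 and 2 locally, and probe 17206, labelled Tnni2, the fast troponin I, was at 1.05, 0.82, 0.38 and -0.12 (-0.80 ± 0.21, and -0.74 locally). The slow fibre list had 3 and 6 of 14 (median -0.04), with 1 and 6 locally. Its probe 6004, labelled Ankrd2, a stretch-responsive protein of slow muscle, was at 0.60, 0.43, 0.04 and -0.94, the other Ankrd2 probe having a difference of -0.15, and probe 3130, labelled Tnnc1, the slow troponin C, at 0.48, 0.36, 0.87 and 1.05. Atrophy and the ubiquitin proteasome had 6 and 3 of 18 (median 0.06), and 2 and 2 locally. Myogenic regulators and embryonic isoforms had 2 and 3 of 12 (median 0.01), and 2 and 4 locally. Probe 7955, labelled Igf2, led that list at -0.22, -0.38, 0.46 and 0.96 (1.01 ± 0.20, and 1.09 locally).

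Most lists for the matrix, cytokines and other cells of the muscle had more probes apart and higher than lower. So did all kept probes, with 23.4% higher and 15.9% lower, or 19.5% and 15.0% locally. The extracellular matrix list had 8 apart and higher and 2 lower of 25 (median 0.13, and 0.05 locally), or 7 and 1 locally. Probe 174, labelled Col6a3, was at -0.49, 0.57, 1.26 and 1.18. Probe 15852, labelled Nid1, a basement membrane protein, was at 0.05, 0.33, 1.03 and 0.86 (0.75 ± 0.16, and 0.77 locally) and at 2.37 on P24h. Cytokines and chemokines had 9 and 3 of 28 (median 0.10), and 5 and 3 locally, with probe 12522, labelled Ccl2, a chemokine that draws monocytes, at 0.05, -0.30, -0.61 and -0.85. The other kept Ccl2 probe, 4412, went the other way, at -0.40, -0.32, -0.24 and -0.28 (0.10). Markers of macrophages and leukocytes had 7 and 2 of 20 (median 0.09), and 6 and 3 locally. The largest gap was that of probe 1907, labelled S100a8, at -0.44, 0.17, 1.20 and 0.62. Other probes of that label were not kept. They were at -0.06 (12238) and -0.46 (7322) on P3h, against 0.03 and -1.52 on R3h. Endothelial markers had 4 and 3 of 12 (median 0.10), which turned to 2 and 4 locally. The counts were, for adipocyte markers, 4 and 1 of 8 (median 0.18), for erythroid markers, 1 and 0 of 6 (median 0.03), and for Schwann cell and nerve markers, 0 and 2 of 5 (median -0.04). Their local counts were 3 and 1, 1 and 0, and 0 and 3. Among the adipocyte labels, probe 4079 (Lep) was at -0.25, -0.04, 0.44 and 0.43, and the other Lep probe had a difference of -0.22. After local subtraction the median had the other sign in 6 of the 20 lists, all of them then within 0.04 of 0: metallothionein, atrophy, fast fibre, slow fibre, myogenic and endothelial.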

How the data were processed

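Each array was deposited as a column of log2 ratios, 1 for each probe. How the authors corrected the background, normalized and centred the arrays is not given in the sources used here; per the labels, Cy5 held the running pool and Cy3 the control pool. The log base follows from the values, whose smallest size above 0 (3.20e-16) is the log2 of the first double-precision number above 1. Probes with a ratio above 1e-12 in size on all 4 arrays were kept, and the 4 arrays had medians of -0.004 to 0.01 over them. No intensities were used, so the signal behind a ratio is unknown, and precision is limited by there being 2 arrays a side. Of the kept probes, 8073 had 1 gene label (8043 updated through the gene identifier to RefSeq symbols), 33 several and 1211 none. limma (version 3.58.1, R 4.3.3; lmFit and eBayes, two-sided) was fitted probe by probe with Benjamini-Hochberg adjustment, and tested on simulated data. Local subtraction took from each ratio the median of the probe and its 100 nearest kept neighbours by number on either side. Named are, per direction, probes past the threshold, then those with the largest gap, up to 12; up to 3 per course; and up to 2 per list. The members, lists and named probes were chosen with earlier results of these data known. Alternatives changed the zero filter, scaling, centring, label averaging, arrays fitted and limits.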

Additional observations from a re-analysis of the deposited data

How the results depend on the processing

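With limma, 0 probes were called in either direction under the other zero filters, scalings, centrings and local subtraction. With 6 arrays in the fit it was also 0, and adding R4w could not change that, as it formed a group of its own. The same count held with labels averaged and with robust eBayes. The exception was leaving out an array, which gave 0 to 42 higher calls, the 42 without P6h, and 0 lower. Leaving out an array moved the probes apart to 3272 to 3875 higher and 2638 to 3261 lower (a side then needs fewer arrays to agree), and those apart by at least 1 to 18 to 117 higher and 5 to 65 lower. Above number 4000 alone, 942 were apart and higher, 6 of them by at least 1. Higher by at least 1 were 108 probes with zeros kept as values, 17 with quantile normalization, 18 with local subtraction and 14 with region medians subtracted, and 23 were lower with quantile normalization. Limits of 0.5 and 1.5 gave 389 and 6 higher and 121 and 1 lower. With a near limit of 0.3 the courses held 4 returning, 9 departing and 11 crossing probes; with 0.7 there were 2 going further, 0 crossing and 3 near on both sides. The direction of the 24 leading probes is largely fixed by their choice, so that it was kept says nothing of stability. Averaging probes of a label left 0.30 for Armc9, -0.46 for Wnt10b and -0.52 for G3bp1, and quantile normalization gave -1.08 for Stmn4. The settings on probes numbered above 4000 and on region medians were added after seeing the data. No paired analysis was possible because each condition has 1 array and the labels carry no replicate numbers.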

Other observations

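The comparison left out the 3193 probes that had a ratio on R3h, R12h and P3h but were listed at 0 on P6h. On P3h, 48 of these lay above both run-end arrays by at least 1, and 1 lay below both by at least 1. Of the 48, 21 were numbered up to 4000, as were 456 of the 3193. The highest gaps, chosen after their values were seen, were those of probe 13061 (labelled Zfp110), at -4.70 on R3h, -4.32 on R12h, -1.03 on P3h and -2.94 on P12h, and of probe 5766 (labelled Ubash3a), at -4.09, -3.79, -0.62 and -2.86. On R4w they were at -4.52 and -3.93, and probe 13061 was at -5.53 on P24h. Like the kept probes far below the control pool, both were nearest to it on P3h. The single probe in the other direction was 16327 (labelled Babam1), at -0.20 on R3h, -0.24 on R12h, -6.28 on P3h and -0.36 on P12h. These are values of single arrays with no test.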
